A study of Mus musculus with 35 samples.

Results

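Arginine metabolism was described through Slc7a2, Nos2, Ass1 and Odc1, which are 4 genes from a set of 6 among the 53379 gene identifiers counted in the study. They were picked by symbol, by their roles in the pathway, and all 4 had a row of counts. The data were total RNA libraries, depleted of ribosomal RNA, from myeloid-derived suppressor cells (MDSC), which are immature myeloid cells that dampen T cell responses, and from whole tumors. The 30 sorted libraries came from female C57BL/6 mice, aged 6 to 12 weeks per the study's methods, that carried an orthotopic T110299 tumor in the pancreas. T110299 is a single pancreatic cancer line derived from a mouse tumor with mutated p53 and Ptf1a-Cre, so all groups shared this one tumor genotype. Treated mice received 50 µg of poly(I:C), a double-stranded RNA analog, complexed with polyethylenimine (poly(I:C)c) by vein on days 18 and 20 after tumor induction. For mice labelled untreated the protocol in the labels and the study's general methods name glucose, whereas the account of this experiment calls them untreated, so whether they were injected is not settled. Polymorphonuclear (PMN)-MDSC were sorted as CD11b+ Ly6Clow Ly6G+ cells and monocytic (M)-MDSC as CD11b+ Ly6Chigh Ly6G- cells. Each cell type was taken from spleen and from tumor. Untreated groups held 4 libraries each, treated spleen PMN-MDSC and treated tumor M-MDSC held 3, and the other treated groups held 4. A further 4 libraries came from untreated bulk tumor lysed directly, and none came from treated bulk tumor.

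Arginine enters myeloid cells through cationic amino acid transporters such as CAT2, the product of Slc7a2. Inside the cell it is split to ornithine and urea by arginases, or oxidised to nitric oxide and citrulline by inducible nitric oxide synthase (Nos2). Argininosuccinate synthase (Ass1) catalyses the rate-limiting step by which citrulline is turned back into arginine, and ornithine decarboxylase (Odc1) commits ornithine to polyamines. Depletion of arginine and release of nitric oxide are classic means by which MDSC restrain T cells, and Nos2 is a textbook marker of classical macrophage activation.

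Sorted libraries held 793070 to 4357105 counted fragments (median 2459368) and bulk tumor libraries 3771590 to 8886115. Levels are given as CPM, the count of a gene scaled to the total of its own library after that total was adjusted by edgeR's TMM factor, with 1 set of factors for all 34 libraries, and as FPKM (CPM per kilobase of exon) wherever genes are compared with each other. These levels were 0.84 to 1.46 times those by the plain total, with the highest factors in treated spleen PMN-MDSC (1.29 to 1.46). Ratios of summed counts and the limits for a count of 0 used plain totals. The sort labels were checked against marker genes. In spleen, 9 neutrophil genes summed to 24098 to 47002 CPM in untreated and 45845 to 93429 CPM in treated PMN-MDSC, against 971 to 8676 CPM in M-MDSC. In tumor, the libraries labelled PMN-MDSC had 998 to 4512 CPM of these genes when untreated and 3801 to 11396 CPM when treated. Ly6g, which encodes the antigen of the gate, averaged 2.92 CPM in untreated tumor PMN-MDSC and was at 0 in at least 1 of these libraries. The same tumor PMN-MDSC libraries had 8276 to 18048 CPM of 7 macrophage genes, and spleen libraries of both cell types had 92.2 to 1392 CPM. Tumor M-MDSC had 3623 to 27456 CPM of the macrophage genes, with the highest value in treated library 2, which also had the lowest sum of the 4 sort antigen genes in its group (250 CPM). Below, PMN-MDSC and M-MDSC are the names of the sort gates. As a check of the treatment, 8 interferon-stimulated genes summed to 285 to 1204 CPM in untreated and 1521 to 16095 CPM in treated sorted libraries, with no overlap.

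**Figure D1:**
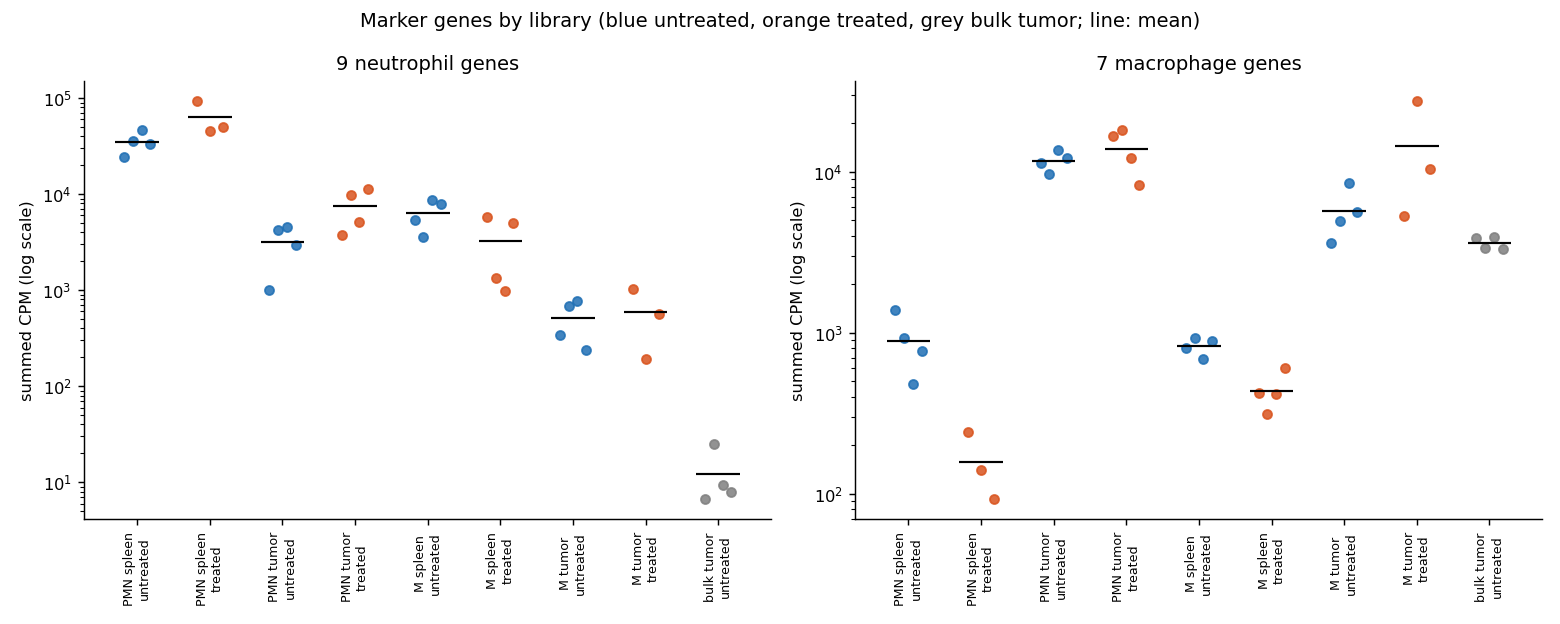
Summed CPM (log scale) of 9 neutrophil genes (left) and 7 macrophage genes (right), 1 point per library, with a line at each group's mean; blue is untreated, orange poly(I:C)c and grey bulk tumor. Untreated tumor libraries sorted as PMN-MDSC reach 998 to 4512 CPM of neutrophil genes, below the 24098 to 47002 CPM in spleen, and 9658 to 13700 CPM of macrophage genes.

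In untreated mice Slc7a2, Ass1 and Odc1 were higher in tumor than in spleen in both sorted cell types. With poly(I:C)c, every treated library lay above every untreated one for Nos2 in all 4 sorted groups, from low counts without treatment. The fit called Nos2 in spleen PMN-MDSC, where 1 library held most counts, and in tumor M-MDSC, in both through the treated libraries alone, and both calls were lost in several fits without 1 library. Ass1 and Odc1 were higher in treated spleen M-MDSC, and Slc7a2 was lower in treated tumor PMN-MDSC, a call also lost in most fits without 1 library.

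Each comparison was fitted over every gene that averaged 25 or more counts across the libraries compared, and a gene was called at an adjusted p under 0.05 (edgeR quasi-likelihood test with Benjamini-Hochberg adjustment). Treatment called 1 of the 2 genes tested in spleen PMN-MDSC, where 11.6% of all tested genes were called. It called 1 of 4 in tumor PMN-MDSC (3.36% of all tested genes), 2 of 2 in spleen M-MDSC (19.6%) and 1 of 4 in tumor M-MDSC (2.88%). Between tumor and spleen, 3 of 3 genes were called in untreated PMN-MDSC, where 59.1% of all tested genes were called, and 3 of 4 in treated PMN-MDSC (53.6%). In M-MDSC the counts were 3 of 3 untreated (28.4%) and 3 of 4 treated (5.87%). Between untreated PMN-MDSC and M-MDSC, 1 of 2 genes was called in spleen (64.4%) and 2 of 3 in tumor (13.0%). Against bulk tumor, 3 of 3 genes were called in PMN-MDSC (69.5%) and 2 of 3 in M-MDSC (69.2%). The difference of the treatment effect between tumor and spleen was called for 1 of 4 genes in PMN-MDSC (3.50%) and for 0 of 3 in M-MDSC (0.790%). In that last fit 1238 genes had an unadjusted p under 0.05, and DESeq2 called 2 genes of the set there. The shares of all genes move with single libraries, most of all in that fit (7 to 250 genes called without 1 library, in place of 69) and in the treatment comparison of tumor M-MDSC (30 to 505, in place of 241). A gene that passes the count minimum only through the group in which it is high had to differ, so these counts are descriptions and the values of each gene follow.

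**Figure D2:**
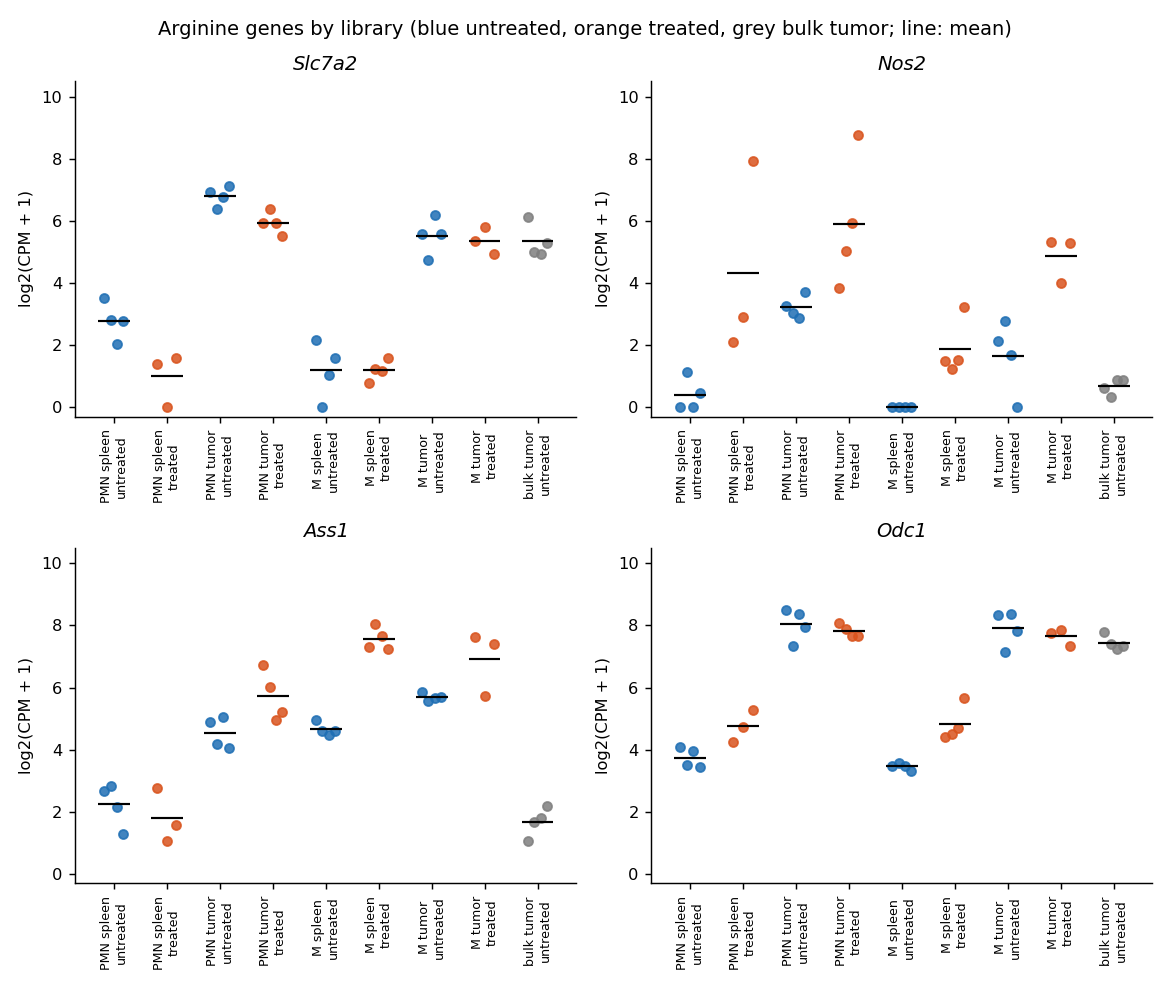
Level of each gene as log2(CPM + 1), 1 panel per gene and 1 point per library, with a line at each group's mean; blue is untreated, orange poly(I:C)c and grey bulk tumor. Slc7a2 and Odc1 separate tumor from spleen in both cell types, and Nos2 has single treated libraries at 243 and 435 CPM.

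Slc7a2 (chr8:40862396-40922308, plus strand, GRCm38) was the transporter gene of the set. Untreated tumor PMN-MDSC had 122, 82.4, 107 and 137 CPM of Slc7a2. Treated tumor PMN-MDSC had 59.4, 82.1, 60.3 and 45 CPM. Every untreated library was above every treated one, although the closest 2 differed by less than 1 CPM. The fitted log2 fold change was -0.93 ± 0.213 (SE, n = 4 and 4, adjusted p = 0.0392). The call was lost in 6 of the 8 fits that left out 1 library (adjusted p of 0.0552 to 0.12, fold change from -0.98 to -0.81) and in the fit over all groups (adjusted p = 0.121). Of the 7 macrophage genes measured beside it, 0 rose and 1 fell in this comparison, and the part of cell composition in the Slc7a2 difference was not tested.

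In untreated spleen, Slc7a2 was at 10.4, 6.08, 3.11 and 5.82 CPM in PMN-MDSC and had 8, 0, 3 and 10 counts in M-MDSC. Treated spleen PMN-MDSC held 2, 0 and 4 counts, under the count minimum and below every untreated library. Summed over libraries this was 6 counts against 71, a ratio of 0.142 in CPM by plain totals with an exact 95% interval of 0.0505 to 0.325, and without the count minimum the fit called it (-2.35, adjusted p = 0.0315). In this comparison 6 of the 6 macrophage genes tested fell as well, as did 3 of 4 monocyte and 1 of 1 erythroid genes. The macrophage sums were 478 to 1392 CPM in untreated and 92.2 to 243 CPM in treated spleen PMN-MDSC, without overlap. Monocyte sums (525 to 1171 and 220 to 451 CPM) and erythroid sums (56.6 to 151 and 0 to 4.96 CPM) did not overlap either. The part of these shifts in the Slc7a2 difference was not tested. Intervals and floors given here cover counting error only, because they pool the counts of a group and leave out the spread between libraries. They also take fragments as independent, although these PCR-amplified fragments carried no molecular identifiers. Tumor was above spleen in all 4 comparisons, by 4.20 ± 0.326 (untreated PMN-MDSC, adjusted p = 6.2e-06), 5.70 ± 0.566 (treated, 1.7e-04), 4.87 ± 0.49 (untreated M-MDSC, 2.0e-05) and 4.95 ± 0.353 (treated, 6.3e-04) on the log2 scale. Slc7a2 met the count minimum in these fits only through the tumor groups (71, 6, 21 and 16 counts in the spleen groups, in that order), so the tests are descriptions. Without the minimum all 4 were also called, at 4.10, 5.64, 4.87 and 4.94. Within untreated tumors Slc7a2 was higher in PMN-MDSC than in M-MDSC (46.7, 26, 72.2 and 46.5 CPM) by 1.29 ± 0.256 (adjusted p = 0.00556), with no overlap. Bulk tumor had 69, 30.9, 29.8 and 37.8 CPM, 1.71 ± 0.268 below PMN-MDSC (adjusted p = 1.4e-04) and overlapping with M-MDSC (difference 0.36 ± 0.327, adjusted p = 0.342). Fewer cells of a type and less RNA per cell cannot be told apart in such bulk samples. In the same comparisons 6 of 7 macrophage genes were higher in either sorted cell type and 1 was lower, and 5 of 5 tumor epithelium genes tested and 5 of 5 fibroblast genes were higher in bulk tumor. In the order of mean CPM, untreated tumor PMN-MDSC stood above the next group in every library, the next 4 groups overlapped their neighbours, and these were separated from the 4 spleen groups.

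Marker genes moved with the compartment as well. Of 9 neutrophil genes, 9 were lower in tumor than in spleen in untreated PMN-MDSC, and of 7 macrophage genes, 7 were higher. In untreated M-MDSC, 6 of the 7 neutrophil genes tested were lower and 7 of 7 macrophage genes were higher. In the same contrasts 4 of 5 tumor epithelium genes tested were higher and 1 lower in PMN-MDSC, and 3 of 3 were higher in M-MDSC. Monocyte genes were higher for 5 of 6 in PMN-MDSC and 2 of 6 in M-MDSC, and of the sort antigen genes tested 3 of 3 were lower in PMN-MDSC and 1 of 2 was higher in M-MDSC. In treated PMN-MDSC, 8 of 9 neutrophil genes were lower and 7 of 7 macrophage, 6 of 6 monocyte and 3 of 3 tumor epithelium genes were higher. In treated M-MDSC, 6 of 7 macrophage and 2 of 2 tumor epithelium genes were higher, and 0 of 8 neutrophil and 0 of 6 monocyte genes were called. The 9 neutrophil genes all had counts in tumor PMN-MDSC and the 7 macrophage genes all had counts in the spleen groups. The part of cell composition in the tumor-spleen differences of Slc7a2, Ass1 and Odc1 was not tested. In untreated spleen 9 of 9 neutrophil genes were higher in PMN-MDSC than in M-MDSC, and in untreated tumor 4 of 9 neutrophil and 6 of 7 macrophage genes were. The part of cell composition in the differences between the gates was not tested.

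Nos2 (chr11:78920787-78960254, plus strand), the inducible nitric oxide synthase gene, was barely present without treatment. Untreated spleen PMN-MDSC held 0, 2, 0 and 1 counts and untreated spleen M-MDSC 0 in all 4 libraries, which allows up to 0.281 CPM over the group at a floor of 3 counts. Untreated tumor PMN-MDSC had 8.5, 7.26, 6.39 and 12 CPM, and untreated tumor M-MDSC 3.38, 5.86, 2.2 and 0 CPM. Bulk tumor had 0.247 to 0.86 CPM. Tumor PMN-MDSC were thus above all spleen, M-MDSC and bulk tumor libraries of untreated mice.

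These untreated levels were mostly under the count minimum, so summed counts were compared. In PMN-MDSC, tumor exceeded spleen 34.6 times (71 against 3 counts, exact 95% interval 11.4 to 172). In M-MDSC the tumor level was 10.6 times a floor of 3 counts over the spleen group (23 against 0 counts). That ratio leaves out the counting error of the 23 counts, and tumor M-MDSC library 4 also had 0 counts. Tumor PMN-MDSC had 2.93 times the Nos2 of tumor M-MDSC (1.81 to 4.92) and 12.1 times that of bulk tumor (7.34 to 20.7). These intervals do not include the spread between libraries. In the fit without the count minimum, which does, the difference between tumor PMN-MDSC and M-MDSC was not called (1.5 on the log2 scale, adjusted p = 0.0832).

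With poly(I:C)c, spleen PMN-MDSC had 3.31, 6.53 and 243 CPM of Nos2. All 3 were above every untreated library, and 1 was far above the others. Of the 502 treated counts that library held 486, and only through it did Nos2 reach the count minimum, so the fitted difference of 7.91 ± 1.77 on the log2 scale (n = 3 and 4, adjusted p = 0.0252) is a description and no support for a change. The call was lost on leaving out untreated library 1, 3 or 4 (adjusted p of 0.0804, 0.0618 and 0.0771) and without the count minimum (0.175), and DESeq2 returned no adjusted p. Without the library at 243 CPM, Nos2 fell under the count minimum. Its summed counts were then 16 against 3, a CPM ratio of 14.8 (4.25 to 79.5) in place of 282 (95.9 to 1371). In the same comparison 3 of 9 neutrophil genes rose and 6 of the 6 macrophage genes tested fell. Of the other genes tested, 3 of 4 monocyte and 1 of 1 erythroid genes fell and 2 of 3 sort antigen genes rose. The library at 243 CPM had the lowest macrophage sum of its group (92.2 CPM), and the part of these shifts in Nos2 was not tested.

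Treated tumor PMN-MDSC had 13.3, 31.7, 60.3 and 435 CPM, again all above the untreated libraries. The fitted difference of 3.91 ± 1.2 did not pass the threshold (adjusted p = 0.15), whereas DESeq2 (0.00439) and the fit over all groups (0.039) called it. Nos2 met the count minimum only through the treated group (71 counts over the untreated libraries), so these fits are descriptions and the 2 calls no support for a change. The difference was not called without the count minimum (0.343) or in any of the 8 fits without 1 library (adjusted p of 0.0608 to 0.312). The summed-count ratio was 12.3 (9.65 to 15.8) and 3.67 (2.82 to 4.83) without the library at 435 CPM. That library had the highest neutrophil sum of its group (11396 CPM) and the lowest macrophage and monocyte sums (8276 and 1048 CPM). Over the whole groups, neutrophil and macrophage sums overlapped between treated and untreated tumor PMN-MDSC, and the part of cell composition was not tested.

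Treated spleen M-MDSC had 5, 5, 6 and 21 counts of Nos2, or 1.8, 1.37, 1.89 and 8.34 CPM, where untreated libraries had none. Over the group this was 11.8 times a floor of 3 counts in the untreated libraries (37 against 0 counts), and 6.37 times that floor without the highest library. These ratios leave out the counting error of the treated counts. That library, number 4, also had the highest B, NK and T cell sums of its group (102, 17.1 and 15.5 CPM). Nos2 was under the count minimum of the fit, and without that minimum it was called (adjusted p = 5.9e-05).

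Treated tumor M-MDSC had 39.1, 15 and 37.9 CPM, above all 4 untreated libraries. With 23 counts over the untreated and 273 over the treated libraries, Nos2 met the count minimum only through the treated group, so the fitted difference of 3.28 ± 0.587 (n = 3 and 4, adjusted p = 0.0254) is a description. A fit over all genes without that minimum also called it, at 3.29. It lost its call in 4 of the 7 fits that left out 1 library, namely untreated library 1, 3 or 4 or treated library 3 (adjusted p of 0.0526 to 0.0985), with fold changes from 3.07 to 3.76 over all 7, and in the fit over all groups (0.125). The lowest treated library was number 2, the one with the highest macrophage sum. Of 7 macrophage genes, 0 were called in this comparison, and of 8 neutrophil genes tested, 0 were called. Of 6 monocyte genes 0 were called, but their sums were 3537 to 4144 CPM in untreated and 2012 to 2670 CPM in treated tumor M-MDSC, without overlap. Tumor epithelium sums were 105 to 320 and 71 to 102 CPM, also without overlap, with 1 of 4 genes tested called lower, and 1 of 2 endothelium genes was called higher. The part of cell composition in the Nos2 difference was not tested. Between treated groups, Nos2 was higher in tumor than in spleen M-MDSC by 3.25 ± 0.647 (adjusted p = 0.0259), a call lost without spleen library 1, 2 or 3 or tumor library 1 or 3 (adjusted p up to 0.0952) and in the fit over all groups (0.073). Nos2 met the minimum there only through the tumor group (37 counts in spleen), and without the minimum the fit called it too, at 3.24. In treated PMN-MDSC tumor and spleen overlapped (0.76 ± 1.44, adjusted p = 0.673), and the sign turned without the library at 435 CPM (-1.18).

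Whether treatment changed Nos2 differently in the 2 compartments was tested for PMN-MDSC and did not pass the threshold (-3.99 ± 2.54, adjusted p = 0.485). Nos2 was too low for that fit in M-MDSC. In order of mean CPM, the 3 highest groups were treated tumor PMN-MDSC, treated spleen PMN-MDSC and treated tumor M-MDSC, each overlapping the next. The mean of treated spleen PMN-MDSC rests on the library at 243 CPM, and its median of 6.53 CPM was below those of treated tumor M-MDSC (37.9 CPM) and untreated tumor PMN-MDSC (7.88 CPM). All libraries of treated tumor M-MDSC lay above untreated tumor PMN-MDSC, the group that followed.

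Ass1 (chr2:31470207-31520672, plus strand) encodes argininosuccinate synthase. Its promoter and that of Odc1 are printed because both genes moved in treated spleen M-MDSC, and they were searched for letters of motifs tied to growth and interferon control. The sequences run 5′ to 3′ on the plus strand from 250 bases before to 50 bases after the start in RefSeq on GRCm38.p6, at chr2:31470020-31470319 and chr12:17544623-17544922, with capitals marking CACGTG (E-box). The RefSeq starts, 31470270 for Ass1 and 17544873 for Odc1, lie 63 and 79 bases downstream of the GENCODE starts given here for the genes.
Ass1: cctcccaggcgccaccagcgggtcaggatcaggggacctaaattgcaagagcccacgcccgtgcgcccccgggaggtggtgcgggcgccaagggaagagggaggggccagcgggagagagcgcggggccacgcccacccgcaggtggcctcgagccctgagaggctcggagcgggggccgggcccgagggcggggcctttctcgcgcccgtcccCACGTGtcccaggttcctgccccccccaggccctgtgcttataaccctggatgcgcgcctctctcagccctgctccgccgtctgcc
Odc1: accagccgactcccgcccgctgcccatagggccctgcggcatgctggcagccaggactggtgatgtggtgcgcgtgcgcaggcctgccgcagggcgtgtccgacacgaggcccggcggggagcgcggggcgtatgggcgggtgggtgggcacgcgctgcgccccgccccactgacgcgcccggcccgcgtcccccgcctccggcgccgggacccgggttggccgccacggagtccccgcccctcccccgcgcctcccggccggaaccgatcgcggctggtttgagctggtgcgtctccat
The Ass1 promoter held CACGTG once, starting 36 bases before the RefSeq start and 27 bases after the GENCODE start, and the Odc1 window held none. Neither window contained TTCNNNGAA (GAS), the ISRE core, which is GAAA, NN and GAAA in a row (TTTC, NN and TTTC on the other strand), or TATAAA (or TTTATA). Of 32851 RefSeq promoters of this length, 7.15% held CACGTG, 8.3% the GAS letters, 3.44% the ISRE core and 13.6% TATAAA.

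Untreated spleen M-MDSC had 30.1, 23.2, 21.2 and 23.3 CPM of Ass1, and treated ones had 159, 262, 201 and 151 CPM. The groups were far apart, and the fitted difference was 2.94 ± 0.204 (adjusted p = 2.7e-05), past the threshold in every fit that left out 1 library. Treated spleen M-MDSC were the group with the highest mean Ass1 of all (193 ± 50.8 CPM, SD). In this comparison 3 of 7 macrophage genes rose and 2 fell, and 2 of 6 monocyte genes rose and 2 fell. Of the genes tested, 1 of 2 endothelium and 1 of 2 sort antigen genes rose and 1 of 1 erythroid genes fell. Untreated and treated sums did not overlap for macrophage (689 to 924 and 312 to 601 CPM) and monocyte genes (2930 to 3894 and 1340 to 2911). The same held for endothelium (20.9 to 29.2 and 117 to 277), erythroid (18.3 to 50.6 and 0.629 to 2.75) and sort antigen genes (305 to 413 and 1035 to 1195). Neutrophil sums overlapped. The part of cell composition was not tested.

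In tumor the treated libraries were more spread. Untreated tumor M-MDSC had 56.9, 46.2, 49.7 and 51.4 CPM, and treated ones 198, 52.1 and 167 CPM, the lowest of them within the untreated range. The difference of 1.4 ± 0.392 was not called (adjusted p = 0.0872), but it was without treated library 2, the one with the highest macrophage sum (1.81, adjusted p = 0.00143). Tumor PMN-MDSC had 28.9, 17.1, 32.4 and 15.7 CPM untreated and 105, 63.8, 29.9 and 35.9 CPM treated, overlapping (1.26 ± 0.394, adjusted p = 0.127). DESeq2 called both tumor differences (0.0149 in M-MDSC and 0.0345 in PMN-MDSC), as did the fits without the count minimum (3.3e-06 and 9.2e-06), and the fit over all groups called that in M-MDSC (0.0246). Spleen PMN-MDSC had 1.09 to 6.08 CPM over both groups. The treatment effect in M-MDSC did not pass the threshold between compartments (-1.52 ± 0.463, adjusted p = 0.145), but it was called by DESeq2 (0.0433), without the count minimum (1.9e-04) and without treated tumor library 1 (0.0481).

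In untreated mice Ass1 was lower in PMN-MDSC than in M-MDSC, by 2.63 ± 0.343 in spleen (adjusted p = 1.5e-04) and by 1.04 ± 0.234 in tumor (0.011) on the log2 scale, each time with no overlap. In spleen Ass1 met the count minimum only through M-MDSC (42 counts in PMN-MDSC), so that test is a description. Without the minimum it was also called, at -2.61 for PMN-MDSC minus M-MDSC. The tumor call was lost in the fit over all groups (0.104). Tumor exceeded spleen by 2.63 ± 0.418 in untreated PMN-MDSC (adjusted p = 4.0e-04), by 4.48 ± 0.688 in treated PMN-MDSC (9.8e-04) and, for untreated M-MDSC, by 1.10 ± 0.163 (3.5e-04). In the PMN-MDSC comparisons Ass1 met the count minimum only through the tumor groups (42 and 13 counts in untreated and treated spleen), so those tests are descriptions. Without the minimum both were also called, at 2.54 and 4.44. Treated tumor and spleen M-MDSC overlapped (-0.46 ± 0.432, adjusted p = 0.563). Bulk tumor had 1.08 to 3.6 CPM, below PMN-MDSC by 3.56 ± 0.375 (adjusted p = 5.4e-06) and below M-MDSC by 4.54 ± 0.315 (2.4e-07). Ass1 met the count minimum there only through the sorted cells (74 counts in bulk tumor), so those tests are descriptions as well. Without the minimum both were also called, at 3.32 and 4.36 for sorted cells minus bulk tumor.

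Ass1 levels carry an uncertainty from a processed pseudogene, Gm5424, which holds 38.6% of the 50-base windows of Ass1 transcripts. Gm5424 took 2367 counts in all against 5389 for Ass1. Its mean was 8.91 ± 2.48 CPM in untreated and 87.8 ± 25.2 CPM in treated spleen M-MDSC, a difference of 3.22 ± 0.243 (adjusted p = 4.1e-05), and it also rose in tumor M-MDSC (2.01 ± 0.446, 0.0493). Fragments of the 2 genes cannot be told apart in the shared stretch, so the Ass1 values may hold part of the Gm5424 signal and the reverse.

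Odc1 (chr12:17544794-17551505, plus strand) encodes the first enzyme of polyamine synthesis. Untreated tumor PMN-MDSC had 358, 160, 326 and 248 CPM and untreated spleen PMN-MDSC 16.1, 10.3, 14.4 and 9.82 CPM. M-MDSC had 320, 141, 332 and 227 CPM in untreated tumor and 10.2, 11, 10.1 and 9.04 CPM in untreated spleen. Tumor thus stood above spleen in every library, with a log2 difference of 4.52 ± 0.293 for PMN-MDSC (adjusted p = 2.7e-06) and 4.71 ± 0.267 for M-MDSC (2.0e-07).

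Treated spleen M-MDSC had 20.2, 21.7, 25.2 and 49.6 CPM, above every untreated library (1.5 ± 0.313, adjusted p = 0.00892). The marker shifts given with Ass1 belong to the same comparison, and their part in the Odc1 difference was not tested. Treated spleen PMN-MDSC had 18.2, 25.6 and 37.6 CPM, also above all untreated ones, but by plain totals these groups overlapped, and the difference of 1.10 ± 0.322 was not called (adjusted p = 0.0612). It was called without treated library 1 (1.29, adjusted p = 0.0378), by DESeq2 (0.0264), without the count minimum (0.0475) and in the fit over all groups (0.0226). In tumor, treated PMN-MDSC had 268, 233, 202 and 200 CPM and treated M-MDSC 213, 231 and 162 CPM, both overlapping with untreated libraries (-0.34 ± 0.229, adjusted p = 0.472, and -0.38 ± 0.285, 0.517).

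The treatment effect on Odc1 differed between tumor and spleen PMN-MDSC by -1.42 ± 0.374 (adjusted p = 0.0478). This call was lost in 13 of the 15 fits that left out 1 library, of every PMN-MDSC group (adjusted p up to 0.171, differences from -1.54 to -1.17). In the same comparison of effects 6 of 7 macrophage genes were called, all in the opposite direction, and their part was not tested. In M-MDSC the difference was -1.85 ± 0.441 and was not called (adjusted p = 0.0636), but it was called by DESeq2 (0.00424), without the count minimum (3.3e-06) and without untreated tumor library 2 (0.0395). With treatment, tumor remained above spleen with log2 differences of 3.10 ± 0.267 for PMN-MDSC (adjusted p = 1.4e-04) and 2.82 ± 0.333 for M-MDSC (0.00313).

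Bulk tumor had 222, 170, 150 and 160 CPM of Odc1, within the range of the sorted tumor libraries. PMN-MDSC were higher by 0.92 ± 0.23 (adjusted p = 0.00372) and M-MDSC by 0.68 ± 0.248 (0.0283), both with overlapping CPM. The M-MDSC call was lost under RLE scaling (0.0545) and on leaving out M-MDSC library 1 or 3 or bulk tumor library 2, 3 or 4 (adjusted p of 0.0527 to 0.145). Odc1 transcripts shared 24.3% of their windows with 16 other genes, 7 of the 8 largest shares being processed pseudogenes with 36 to 589 counts each against 15112 for Odc1.

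**Figure D3:**
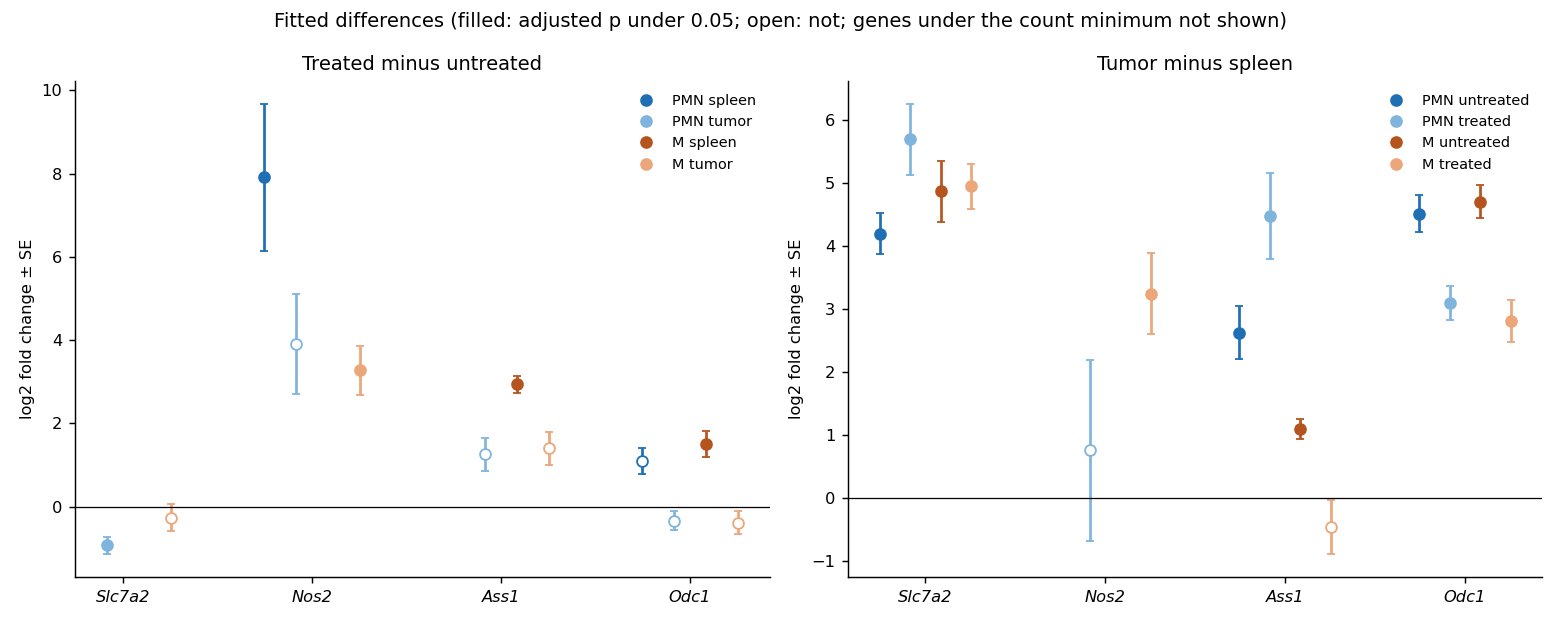
Fitted log2 fold changes ± SE of treated minus untreated (left) and tumor minus spleen (right) for each gene that passed the count minimum; filled points have an adjusted p under 0.05 and open points do not. Slc7a2 and Odc1 lie at 2.82 to 5.70 in the tumor comparisons and Nos2 at 3.28 to 7.91 in the treatment comparisons.

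Set side by side per length in untreated tumor PMN-MDSC, the mean levels were 80.2 FPKM for Odc1, 12.3 for Slc7a2, 9.74 for Ass1 and 1.94 for Nos2. In treated spleen M-MDSC the order was different, with 80 FPKM for Ass1, 8.57 for Odc1, 0.759 for Nos2 and 0.146 for Slc7a2.

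Other genes of arginine use were taken as a list of 46, covering transport, urea cycle enzymes, nitric oxide synthases and their cofactor, polyamine genes and other routes of arginine and ornithine. With treatment, 4 of 15 tested were called in spleen PMN-MDSC (3 higher, 1 lower, against 11.6% of all tested genes), 1 of 24 in tumor PMN-MDSC (lower, 3.36%), 6 of 28 in spleen M-MDSC (4 higher, 2 lower, 19.6%) and 3 of 27 in tumor M-MDSC (1 higher, 2 lower, 2.88%). The medians of all tested list genes were 0.36, 0.06, 0.10 and -0.04 on the log2 scale, and those of all tested genes 0.01, 0.01, -0.01 and -0.00. Gch1, which encodes the rate-limiting enzyme for tetrahydrobiopterin, the cofactor of nitric oxide synthases, rose from 19.7 ± 4.4 to 50 ± 9.63 CPM in spleen PMN-MDSC (1.37 ± 0.253, adjusted p = 0.0136) and from 23.7 ± 1.87 to 51.7 ± 22.6 CPM in spleen M-MDSC (1.08 ± 0.269, 0.0209).

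Padi2, a peptidylarginine deiminase that converts arginine residues of proteins to citrulline, fell with treatment in 3 comparisons. It went from 87.2 ± 23 to 12.4 ± 3.84 CPM in spleen M-MDSC (adjusted p = 1.9e-04), from 37.7 ± 7.48 to 8.94 ± 1.09 CPM in tumor M-MDSC (0.00652) and from 20.2 ± 4.73 to 6.02 ± 2.83 CPM in tumor PMN-MDSC (0.0157). In tumor PMN-MDSC the treated libraries averaged under the count minimum, which Padi2 met only through the untreated group, so that test is a description. Padi4, the deiminase of neutrophils, rose in spleen PMN-MDSC from 516 ± 99.7 to 1035 ± 125 CPM (adjusted p = 0.0229), the comparison in which 3 of 9 neutrophil genes rose. Slc3a2, the heavy chain shared by several amino acid transporters, and Aldh18a1, which makes the precursor of proline and ornithine, rose in spleen M-MDSC by 1.07 ± 0.226 (adjusted p = 0.00922) and 1.09 ± 0.226 (0.0086). Smox, spermine oxidase, fell in tumor M-MDSC by 1.51 ± 0.314 on the log2 scale (adjusted p = 0.0389), and Paox, which oxidises acetylated polyamines, rose (1.82 ± 0.405, 0.0481). Oat, the aminotransferase that takes ornithine toward proline, fell in spleen PMN-MDSC by 1.21 ± 0.266 (0.0232), and Oaz2, an antizyme that restrains ornithine decarboxylase, rose (1.0 ± 0.216, 0.0223).

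Between tumor and spleen, the list gave 13 of 21 called in untreated PMN-MDSC (8 higher in tumor, 5 lower, against 59.1% of all tested genes), 11 of 19 in treated PMN-MDSC (8 and 3, 53.6%), 13 of 27 in untreated M-MDSC (8 and 5, 28.4%) and 3 of 29 in treated M-MDSC (3 and 0, 5.87%). The share in PMN-MDSC was near that of all genes. The list medians were 0.50, 0.67, 0.25 and -0.07 on the log2 scale, and those of all tested genes 0.01, 0.04, 0.02 and -0.01. Slc3a2 was higher in tumor in all 4, from 48.7 ± 6.62 to 181 ± 37.5 CPM in untreated PMN-MDSC (adjusted p = 2.4e-05) and from 32 ± 6.05 to 163 ± 34.7 CPM in untreated M-MDSC (2.1e-06). Gatm, which uses arginine for creatine synthesis, was 86.1 ± 15.7 CPM in tumor and 11.2 ± 4.28 CPM in spleen of untreated PMN-MDSC (1.0e-05). Smox was 208 ± 41.2 CPM in tumor and 33.7 ± 12 CPM in spleen of untreated M-MDSC (4.2e-06). Padi4 was lower in tumor PMN-MDSC, at 47.3 ± 17.5 against 516 ± 99.7 CPM (1.3e-05), where all 9 neutrophil genes were lower as well. Between untreated PMN-MDSC and M-MDSC, 19 of 24 list genes were called in spleen (8 higher in PMN-MDSC, 11 lower, 64.4% of all tested genes) and 5 of 23 in tumor (3 and 2, 13.0%). Against bulk tumor 19 of 32 were called in PMN-MDSC (12 higher, 7 lower, 69.5% of all tested genes) and 21 of 31 in M-MDSC (14 and 7, 69.2%), shares below or near those of all genes. The difference of treatment effects was called for 1 of 20 in PMN-MDSC (Amd1, 1.96 ± 0.476, adjusted p = 0.0323, beside 3.50% of all tested genes) and for 1 of 28 in M-MDSC (Smox, -1.91 ± 0.417, 0.0466, beside 0.790%).

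Across the 30 sorted libraries, log2(CPM + 1) of Slc7a2 followed that of Odc1 (Pearson r = 0.89). Among 8533 genes compared, those most like Nos2 were Plin2 (0.90), 1700017B05Rik and Adamtsl4. For Slc7a2 they were Nr4a3 (0.97), Coq10b and Cd83, and for Odc1 Stab1 (0.97), Ccl2 and Il1a. Spon1 (0.96) and its own pseudogene Gm5424 were among the 3 most like Ass1. These correlations describe 30 points that fall into 8 groups and share the contrast of tumor and spleen.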

How the data were processed

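Per the study's methods and the labels, the authors made total RNA libraries with a stranded low-input kit, depleted ribosomal RNA, mapped reads to GRCm38 with ContextMap and BWA, and used featureCounts (Subread 1.4.6-p3) by strand on Gencode v16. The deposited values were these counts per gene for 35 libraries, and 1 treated tumor M-MDSC library with 10 counts was left out. Symbols, positions and exon lengths came from GENCODE M21 (53274 of 53379 identifiers matched). CPM and FPKM were computed from the counts and library totals adjusted by TMM over the 34 libraries. Ratios of summed counts used plain totals.

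Each comparison was fitted on its own libraries with edgeR 4.0.16 in R 4.3.3 (quasi-likelihood F-test, robust, two-sided, TMM scaling, limma 3.58.1) on genes averaging 25 or more counts, adjusted by Benjamini-Hochberg over all genes tested. The fits were tested on simulated data. Alternatives were RLE scaling, no count minimum, DESeq2 1.42.0, a fit over all groups, each library left out in turn, and the study's stricter call (adjusted p under 0.001 and at least 2-fold). Ratios of summed counts carry exact (Clopper-Pearson) intervals.

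The genes, lists and tests were chosen with earlier results of these data known. Of the set of 6 genes, 2 and the tests built on them are not reported here. The other 4 were named in every group, and from the list of 46 up to 3 called genes of the smallest adjusted p in each direction per comparison, of which the text gives a part. Likeness of genes was Pearson's r over sorted libraries, 3 genes each. Shared sequence was counted in windows of 50 bases, and genes sharing at least 5% were listed. Sample titles carry mouse numbers, but the columns carry only a running number that no label gives. Columns were not matched to mice by their order, so libraries were treated as unpaired although some share a mouse, and p-values measure the spread between these libraries. Of 48 pairs of libraries within groups, 0 were identical.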

Additional observations from a re-analysis of the deposited data

Results flagged for a closer look

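A single library stood far from the other 3 in 3 of 27 sets of 4 values examined, each being 1 gene in 1 of the groups of 4 libraries (its gap to the nearest value was over 0.829 of the group's range), and chance alone gives this in about 5% of such sets. In treated spleen M-MDSC, Nos2 was 8.34 CPM in 1 library and 1.89 CPM in the next, and Odc1 was 49.6 CPM against 25.2 CPM. Both values came from the same library, number 4, which also had the highest B, NK and T cell sums of the group. In treated tumor PMN-MDSC, Nos2 was 435 CPM in 1 library and 60.3 CPM in the next. The treated spleen PMN-MDSC library at 243 CPM of Nos2, the spleen M-MDSC library and the tumor PMN-MDSC library carry consecutive running numbers in the count table (29, 30 and 31). The sample titles give 1 mouse number to libraries of both organs and cell types, but no label ties a running number to a mouse, so whether 1 mouse gave all 3 libraries was not tested. Treated tumor M-MDSC library 3, number 32, had 37.9 CPM of Nos2, the middle value of its group.

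The treatment effect on Odc1 in PMN-MDSC differed between tumor and spleen by -1.42 on the log2 scale in a test of the difference itself, and that call was lost in 13 of 15 fits without 1 library.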

How the results depend on the processing

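Of the member folds with a value, 43 kept direction and side of the threshold and 1 was lost under RLE scaling. Under DESeq2 36 kept both and 6 became calls, without the count minimum 38 kept both, 5 became calls and 1 was lost, and in the fit over all groups 30 kept both, 3 became calls and 4 were lost. DESeq2 gave no adjusted p for Nos2 in the treatment comparison of spleen PMN-MDSC and in treated PMN-MDSC of tumor against spleen. The number of the 4 genes called by treatment (1, 1, 2 and 1 in spleen PMN-MDSC, tumor PMN-MDSC, spleen M-MDSC and tumor M-MDSC) became 0, 0, 1 and 0 under the stricter call; those for treated M-MDSC of tumor against spleen became 1, untreated tumor PMN-MDSC against M-MDSC 0 (from 2; 1 in the fit over all groups), M-MDSC against bulk tumor 1 (from 2; also 1 under RLE scaling), and the effect difference in PMN-MDSC 0. DESeq2 called 3 genes in tumor PMN-MDSC, 2 in tumor M-MDSC and 2 in the effect difference of M-MDSC. Without the count minimum there were 2 in untreated spleen PMN-MDSC against M-MDSC (from 1), 2 by treatment in spleen PMN-MDSC, 2 in tumor PMN-MDSC, 2 in tumor M-MDSC and 2 in the effect difference of M-MDSC, and the fit over all groups called 2 in spleen PMN-MDSC. Leaving out 1 library gave 0 to 2 in spleen PMN-MDSC, 0 to 1 in tumor PMN-MDSC, 0 to 2 in tumor M-MDSC, 0 to 1 in each effect difference, and 1 to 2 in M-MDSC against bulk tumor (1 without M-MDSC library 1 or 3 or bulk tumor library 2, 3 or 4). Uncalled folds that turned without 1 library were Slc7a2 (0.03; range -0.51 to 0.03) in treatment of tumor M-MDSC, Nos2 (-1.18; -1.18 to 4.66) in treated PMN-MDSC of tumor against spleen, Odc1 (-0.02; -0.02 to 0.35) in tumor PMN-MDSC against M-MDSC, and in the effect difference of M-MDSC Slc7a2 (-0.37, -0.11, -0.07, -0.03 and -0.14; -0.37 to 0.44). The cause was not tested. Counts of all called genes moved by over 1.5 times in 14 of 14 comparisons under the stricter call, 6 of 14 under DESeq2, 9 of 14 without the count minimum, 4 of 12 in the fit over all groups and 42 of 122 fits without 1 library. Without 1 library, the calls by treatment ran from 307 to 1001 in spleen PMN-MDSC, 110 to 276 in tumor PMN-MDSC, 1089 to 1808 in spleen M-MDSC and 30 to 505 in tumor M-MDSC, those for treated M-MDSC of tumor against spleen from 231 to 595, for tumor PMN-MDSC against M-MDSC from 610 to 1234, and for the effect differences from 75 to 447 in PMN-MDSC and 7 to 250 in M-MDSC. By treatment, the 844, 279, 1733 and 241 genes called in spleen PMN-MDSC, tumor PMN-MDSC, spleen M-MDSC and tumor M-MDSC became 3, 20, 218 and 1 under the stricter call; DESeq2 gave 1354, 613 and 797 and no count minimum 1818, 864 and 1064 for the first, second and last, and the fit over all groups 1663 and 773 for the first and last. Between tumor and spleen, 4714, 4307, 2357 and 530 (untreated and treated PMN-MDSC, untreated and treated M-MDSC) became 1727, 1045, 714 and 17; for treated M-MDSC DESeq2 gave 1132, no count minimum 1972 and all groups 1292, and no count minimum gave 3662 for untreated M-MDSC. PMN-MDSC against M-MDSC moved from 5523 to 1993 in spleen and from 990 to 126 in tumor (no count minimum 1658, all groups 607). Against bulk tumor, 7736 and 7630 became 4469 and 4619, with 11698 for PMN-MDSC without the count minimum. The effect differences moved from 282 and 69 to 0 and 1, with DESeq2 at 501 and 307 and no count minimum at 676 and 659. The share of calls that were higher moved by over 10 points from 52.5% to 39.9% in spleen PMN-MDSC by treatment without the count minimum, from 87% to 71.7% (DESeq2), 69% (no count minimum) and 68% (all groups) in treated M-MDSC of tumor against spleen, from 90.4% to 79% in the effect difference of PMN-MDSC (DESeq2) and from 29% to 47% in that of M-MDSC (no count minimum). No paired analysis was possible from names alone, because the columns of the count table carry no mouse number. They carry only a running number that no label ties to a mouse. In cell type, organ and treatment the columns follow the order of the mouse-numbered titles. Columns were not matched to mice by that order, so no paired fit was run and the effect of pairing was not tested. Depth limits Nos2 and Slc7a2 in spleen, where most groups averaged under 25 counts per library.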
